A study of Drosophila melanogaster with 7 samples.

Results

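The regions described here are the autosomal places where CLAMP, a zinc-finger protein with a preference for GA-rich sites, was called in the female *Drosophila melanogaster* line Kc and not in the male line S2. They were chosen from the peak lists of 5 CLAMP libraries. Peaks that shared at least 1 bp were merged into regions. A region was kept when it was held by both Kc CLAMP libraries and by no S2 CLAMP library, and when it overlapped no peak of a control rabbit IgG library. Regions on X, Y, 4 and the mitochondrial genome were left out, as were 2L above 22 Mb, 3L above 23 Mb and 3R below 4.2 Mb. This left 272 Kc-only regions out of 19039 merged regions in all. They make up 2.28% of the 11920 autosomal regions without IgG overlap and 2.03% of the 13372 autosomal regions before that filter. Made the same way, 182 S2-only regions (1.53%) and 469 regions of all 5 libraries (3.93%) serve for comparison. An S2-only region had to be held by 3 libraries and a Kc-only region by 2, so their numbers are not directly comparable. Without S2 replicate 3, 911 regions were S2-only and 287 Kc-only.

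The study asked where CLAMP binding differs between a female and a male embryonic cell line. Both lines were untreated and unfixed, and CUT&RUN was the assay: a nuclease tethered by the antibody cuts around occupied sites, and the fragments set free are sequenced. The lists covered 2 Kc CLAMP libraries, 1 Kc IgG library, 3 S2 CLAMP libraries and 1 S2 IgG library. One more Kc CLAMP library had been started but was given up because its starting material was too scarce, per the study's design text. Kc and S2 are each a single long-established line, so the sex of the line cannot be told apart from any other difference between these 2 lines.

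CLAMP is best known for its part in dosage compensation, where it helps to bring the male-specific complex to the X chromosome. It is made in both sexes, and it also binds GA repeats near genes on the autosomes. There it is known to open chromatin and to take part in transcription and splicing. GAF, a second GA-binding protein, recognises similar repeats.

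On X, 2, 3 and 4, Kc CLAMP replicates 1 and 2 had 9832 and 8769 peaks, and S2 CLAMP replicates 1 to 3 had 8904, 8801 and 5535. The IgG lists held 8615 peaks in Kc and 1165 in S2. S2 replicate 3 stood apart, with a q-value of at most 0.0001 for 32.7% of its peaks, against 53.7% to 76.4% in the other CLAMP libraries, and its title and the name of its list carry different sample numbers. The lists hold no read numbers, so depth is unknown, and a region without a peak is one where no peak was called at that depth. Because the presence of peaks chose the regions, the difference between the lines is the rule itself and was given no test.

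Most of the Kc-only regions were of middling strength. Fold enrichment, the authors' ratio of signal at a summit to the background estimated by the peak caller, ranged from 1.46 through a median of 2.11 to 4.06 in Kc replicate 1. In Kc replicate 2 it ranged from 1.41 through 2.23 to 9.20. Within each list the percentile of a region's highest fold, which runs from 0 for the weakest peak to 100 for the strongest, had a median of 54.3 in replicate 1 and 48.0 in replicate 2. All autosomal regions without IgG overlap that had a peak in the library had medians of 50.4 and 57.6. The Kc-only median was thus a little higher in replicate 1 and lower in replicate 2. The 469 autosomal regions held by all 5 libraries, which had to be called in each of them, reached medians of 82.9 and 87.6 in the same lists. The rule used these Kc values only as presence or absence, and the comparison of strength is a description. Of the 272 regions, 106 (39.0%) reached a q-value of 0.0001 or lower in both Kc libraries, and 50 had it in neither.

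The Kc libraries ranked the Kc-only regions less alike than the regions of all 5 libraries. The distance between the strongest summits of the 2 libraries had a median of 84 bp, and it was 100 bp or less in 150 regions (55.1%). Each region joins overlapping peaks of both libraries, so a short distance is largely set by the rule. Base pairs covered by both libraries made up a median of 52.1% of a region, and 246 regions held a single peak from each. Across the 272 regions, the percentiles of the 2 libraries had a Spearman correlation of 0.30, against 0.60 across the 469 regions of all 5 libraries. Points of such a correlation share both libraries and are not independent. Only 11 regions lay at or above the 80th percentile in both lists, and 73 lay below the 50th in both.

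**Figure D1:**
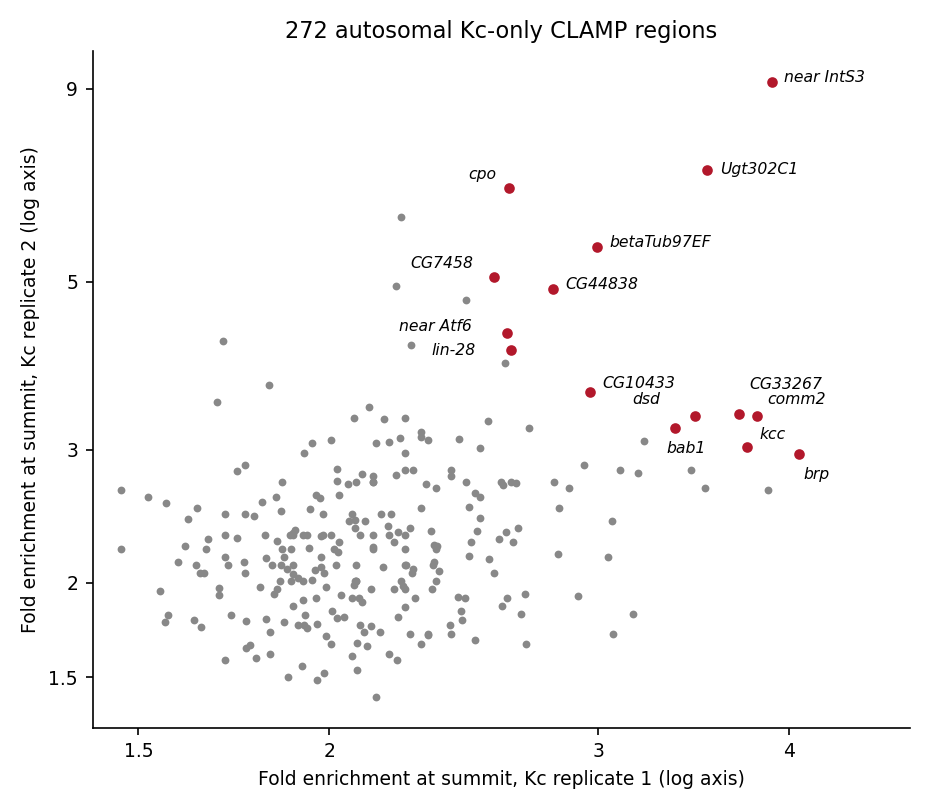
Fold enrichment at the strongest summit of each of the 272 autosomal Kc-only regions in Kc replicate 1 (horizontal, log axis) and Kc replicate 2 (vertical, log axis), 1 point per region. The 15 regions with the highest mean percentile are in red with their gene, and the medians of all 272 are 2.11 and 2.23.

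**Figure D2:**
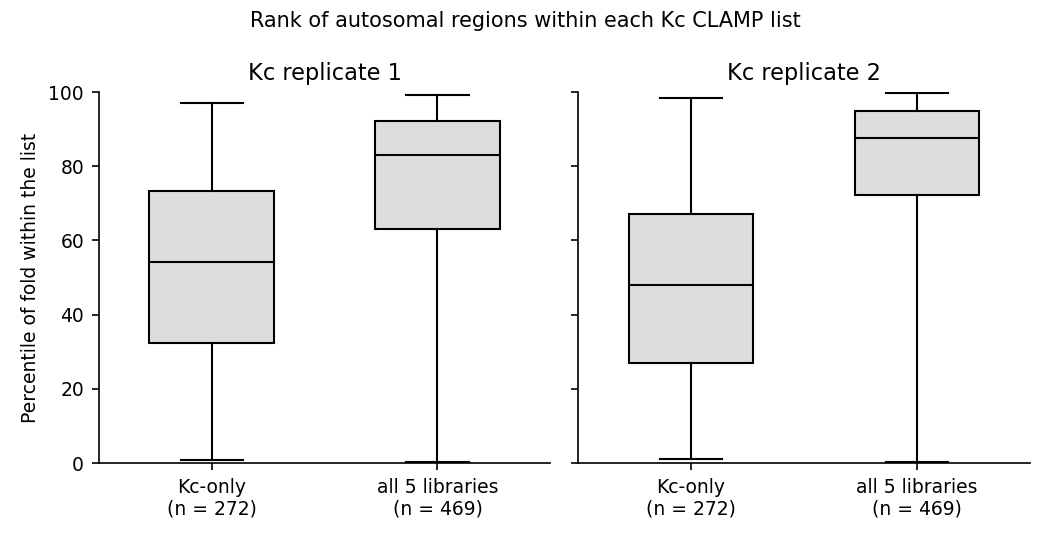
Percentile of a region's highest fold within the list of Kc replicate 1 (left) and Kc replicate 2 (right), for the 272 Kc-only regions and the 469 autosomal regions of all 5 libraries. Boxes span the quartiles with the median as a line, and whiskers reach the lowest and highest value. The Kc-only medians are 54.3 and 48.0, below 82.9 and 87.6.

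The leading Kc-only regions, ranked by their mean percentile in the 2 Kc lists, lay mainly at single genes. The first was the widest of all at 2238 bp. It lay on proximal 2R (2R 4270536 to 4272773 in dm6, the build of all coordinates here) outside genes, 27601 bp from IntS3, an Integrator subunit gene. Kc replicate 2 called it as 1 peak with a fold of 9.20, and Kc replicate 1 called 2 peaks there with folds of 3.71 and 3.90. Its nearest S2 CLAMP peak lay 7813 bp away.

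A gene end is here either bound of a gene, start or finish, since strand was not given. A region at such an end of Ugt302C1, a gene for a UDP-glycosyltransferase, followed at 3R 11156695 to 11157220. Its folds were 3.54 and 7.03 in Kc replicates 1 and 2, and the summits lay 19 bp apart. No S2 CLAMP peak lay within 15462 bp, while the nearest IgG peak was 382 bp away. At the end of betaTub97EF, a gene for a beta-tubulin isotype, a region at 3R 27987716 to 27988432 had folds of 2.99 and 5.56. A second Kc-only region lay 567 bp further on, at 3R 27989000 to 27989648, 50 bp outside CG4815, with folds of 2.60 and 2.69. These neighbouring regions were among the farthest of all from S2 binding, with the nearest S2 CLAMP peak 39088 and 40372 bp away.

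Inside cpo, a gene for an RNA-binding protein of the nervous system, a region at 3R 17948942 to 17949980 had folds of 2.62 and 6.66. The cpo gene also held a region of all 5 libraries elsewhere, and 5 Kc IgG peaks lay in it. By contrast, lin-28, which encodes the RNA-binding partner of let-7 microRNA precursors, held 4 and 2 CLAMP peaks in Kc replicates 1 and 2, none in any S2 library and none with IgG. Its Kc-only regions, at 3L 5654283 to 5655266 and 3L 5655656 to 5656078, had folds of 2.63 and 4.06 and of 2.70 and 3.21.

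The order of the Kc libraries varied among the leaders, and replicate 1 had the higher fold at comm2, brp, kcc, bab1 and dsd. In comm2, a relative of the axon guidance gene comm, the folds were 3.81 and 3.32 in Kc replicates 1 and 2. In brp, a gene for an active-zone scaffold of synapses, they were 4.06 and 2.96. In kcc, a gene for a potassium-chloride cotransporter, they were 3.75 and 3.02, and in bab1, a BTB-domain transcription factor gene of limb and ovary, 3.37 and 3.20. In dsd they were 3.47 and 3.32. Regions at CG44838, CG33267, CG7458 and CG10433 and one 3000 bp from Atf6, a stress-response factor gene, completed the first 15, and of these CG33267 alone had the higher fold in replicate 1. All 15 were still overlapped by a Kc-only region with stricter peaks, equally long lists and summit windows. They had been picked for high fold, so passing stricter peaks and shorter lists was largely set by that choice.

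Control IgG peaks in Kc lay beside some of the strongest regions. A Kc IgG peak lay within 500 bp of 32 Kc-only regions (11.8%), among them those at Ugt302C1, CG33267, bab1 and kcc of the first 15. The matching share over all autosomal regions without IgG overlap was not worked out, so 11.8% cannot be called high or low. At CG33267 the gap was 47 bp, and the gene held 9 and 7 Kc CLAMP peaks, 6 Kc IgG peaks and no S2 CLAMP peak. The gene mwh, which acts in planar polarity of wing hairs, was alike: it held 11 and 8 Kc CLAMP peaks, 12 Kc IgG peaks and no S2 CLAMP peak. Its Kc-only regions had folds of 3.22 and 3.08 (3L 1226032 to 1227127) and of 3.88 and 2.65 (3L 1219660 to 1220081), and they lay 16 and 273 bp from a Kc IgG peak. At lin-28 and betaTub97EF no IgG peak lay in the gene. Leaving out all regions with an IgG peak within 500 bp, an alternative chosen after seeing the data, left 239 Kc-only regions and 11 of the first 15.

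The IgG filter set aside many candidates. Before it, 450 autosomal regions were held by both Kc and no S2 CLAMP library. Of these, 178 (39.6%) overlapped an IgG peak, all 178 with the Kc control and 1 with the S2 control as well. Among S2-only regions, made the same way from all 3 S2 and no Kc library, 57 of 239 (23.8%) were set aside, 42 of them for an S2 IgG peak and 21 for a Kc IgG peak. Among regions of all 5 libraries it was 341 of 810 (42.1%), and over all autosomal regions the filter left 11920 of 13372. The part that the unequal IgG lists, 8615 peaks in Kc and 1165 in S2, play in these shares was not tested.

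The 272 regions touched 223 genes, of which 210 were protein-coding. That is 1.52% of the 14712 autosomal genes and 1.82% of the 11557 protein-coding ones. Held genes were long, with a median length of 12281 bp against 1652 bp for all autosomal genes. Among protein-coding genes, a region was held by 0.303% of those up to 2 kb, by 3.1% of those from 5 to 10 kb, by 6.18% of those from 10 to 20 kb, by 7.76% of those from 20 to 50 kb and by 14.3% of those above 50 kb. Of the other 13 genes, 9 were lncRNA genes, 3 antisense RNA genes and 1 a U1 snRNA gene.

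Many of these genes carried CLAMP in S2 cells too, at other sites. Of the 223 genes, 78 (35.0%) carried CLAMP peaks of all 3 S2 libraries elsewhere in the gene, and 42 (18.8%) also held a region of all 5 libraries, which 464 of all 14712 autosomal genes (3.15%) did. In 74 genes (33.2%) no S2 CLAMP library had a peak anywhere in the gene, and 57 of these had no IgG peak either. The matching shares over all autosomal genes were not worked out, so 35.0% and 33.2% have no background here. Genes without any S2 peak were short, with a median length of 2675.5 bp, and those with peaks of all 3 S2 libraries were long, with a median of 28804 bp. A longer gene has more room for a peak of either line, and the part of length was not tested.

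There were 25 genes with 2 or more Kc-only regions. The ETS factor gene pnt, a nuclear effector of EGF receptor signalling, held 4. Their folds in Kc replicates 1 and 2 were 2.24 and 1.98, 2.49 and 1.68, 2.02 and 1.80, and 1.56 and 1.77. At pnt the Kc libraries had 16 and 15 CLAMP peaks and 6 IgG peaks, and the S2 libraries had 14, 13 and 8 CLAMP peaks and no IgG peak. The gene was densely called in both lines, and the mean percentile of all 4 regions was below the median of the 272.

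The genes bmm, mam and NK7.1 held 3 regions each. At bmm, the gene for the fat-mobilising lipase Brummer, folds were 2.08 and 3.31, 2.22 and 2.33, and 1.99 and 1.70. No IgG peak lay in it, and its CLAMP peaks numbered 7 and 5 in Kc, against 3, 1 and 0 in S2. At mam, the gene for the Notch coactivator Mastermind, the Kc libraries had 23 and 16 peaks, against 14, 14 and 3 in the S2 libraries. At NK7.1, a homeobox gene, the Kc libraries had 11 and 6 peaks, against 5, 4 and 0 in the S2 libraries. Genes with several Kc-only regions were picked for Kc peaks that S2 lacks. Part of a Kc excess in such counts is therefore built in, and the counts only describe these genes.

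The other 21 genes held 2 regions each. Besides lin-28 and mwh they included sima, the gene for the hypoxia-inducible factor alpha subunit, Orai, a store-operated calcium channel gene, and Atg17 of the autophagy machinery. Also among them were bol, a germline RNA-binding protein gene, ttv, a heparan sulfate polymerase gene, and Cipc, an inhibitor of the clock factor CLOCK. Others were wde, a partner of a histone H3 lysine 9 methyltransferase, lilli, Plp of the centrosome, shot, a cytoskeletal linker with folds of 1.81 and 2.56 and of 1.65 and 2.06, Epac, CG3764, the overlapping CG6191 and CG45088 with the same regions, and Eip75B, Eip78C, foxo and InR, which are described below. The 2 regions of bol lay 11910 and 12485 bp from the nearest S2 CLAMP peak, although S2 replicates 1 and 2 had 3 and 2 peaks elsewhere in that gene.

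**Figure D3:**
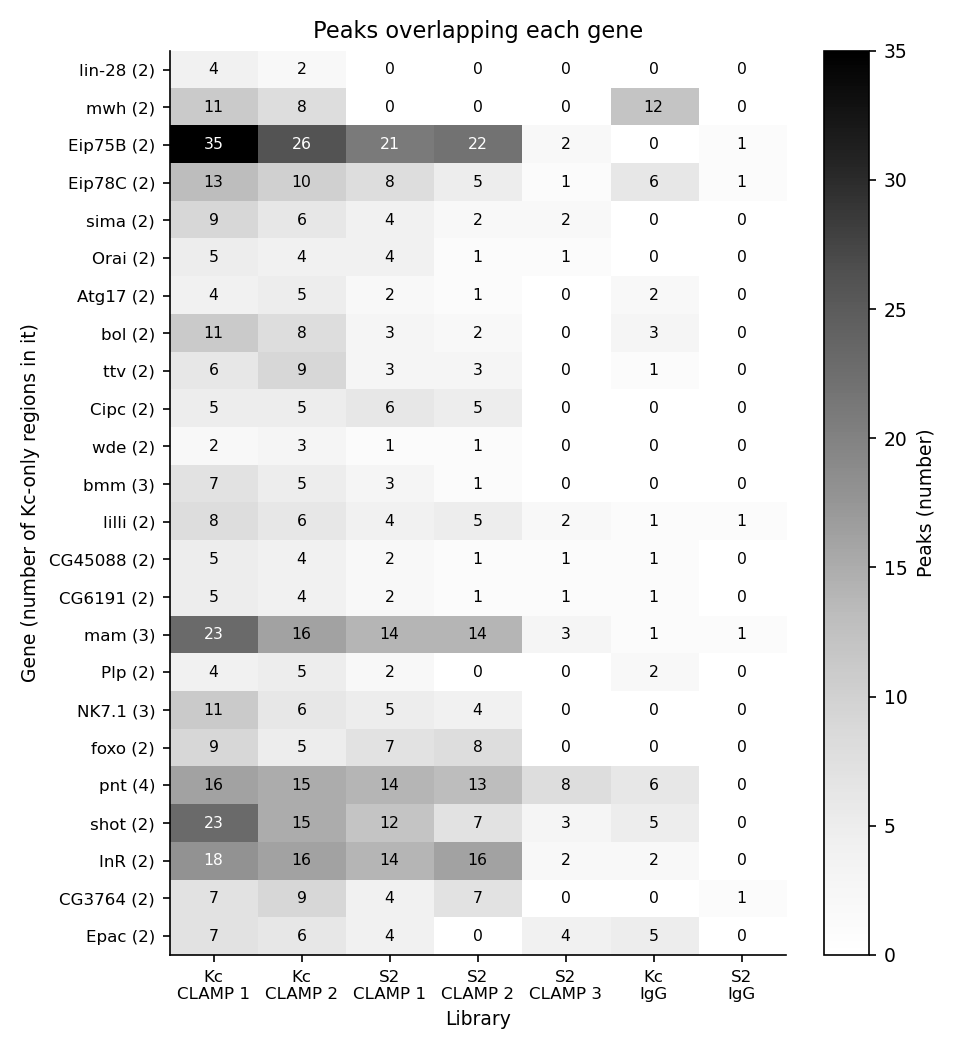
Number of peaks of each library (columns, Kc first) that overlap each gene shown with 2 or more Kc-only regions (rows, with the number of such regions in brackets). Eip75B, mam, pnt, InR and shot carry many peaks in both lines, lin-28 and mwh carry none in S2, and mwh has 12 Kc IgG peaks.

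Genes of the ecdysone response, the steroid hormone programme of moulting and metamorphosis, were held in 5 of 27 autosomal members (18.5%). They were Eip75B and Eip78C, both nuclear receptor genes, Eip93F, a transcription factor gene of metamorphosis, ftz-f1, a nuclear receptor gene, and Eip63E, a cyclin-dependent kinase gene. S2-only regions lay in 1 gene of the list and regions of all 5 libraries in 7. Of all protein-coding genes 1.82% were held, and 7.76% of those from 20 to 50 kb and 14.3% of those above 50 kb. Members of the list had a median length of 21112 bp, while Eip75B, Eip93F, ftz-f1 and Eip63E each exceed 50 kb.

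The upper region of Eip75B, at 3L 18056860 to 18057589, had a fold of 3.45 in Kc replicate 1 and 2.82 in replicate 2, and the other, at 3L 18021024 to 18021366, 1.56 and 2.55. The Kc libraries called 35 and 26 CLAMP peaks and no IgG peak along the 113744 bp of Eip75B, against 21, 22 and 2 CLAMP peaks and 1 IgG peak in S2. Eip78C held a region at 3L 21250075 to 21251144 with folds of 3.19 and 2.79. A Kc IgG peak lay 36 bp from it, and 6 Kc IgG peaks lay in the gene. Its second region, with folds of 1.73 and 1.81, lay 63 bp from an S2 CLAMP peak. At Eip93F the folds were 2.03 and 2.26, at ftz-f1 1.89 and 2.32, and at Eip63E 1.82 and 2.31. S2 peaks were present elsewhere in all 5 genes.

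Receptor tyrosine kinase, JAK-STAT and insulin signalling genes were held in 4 of 33 autosomal members (12.1%), beside 2 held by S2-only regions and 10 by regions of all 5 libraries. All protein-coding genes had 1.82%, and those from 10 to 20 kb, where the list's median of 13383 bp lies, 6.18%. InR (49074 bp) and foxo (31034 bp) are of the class from 20 to 50 kb with 7.76%. The longest, pnt, at 55937 bp, is of the class above 50 kb with 14.3%. Those held were pnt, the insulin receptor gene InR, the forkhead factor gene foxo on which insulin signalling acts, and Stat92E. The folds at InR were 1.89 and 2.06 and 1.87 and 1.77 (Kc replicates 1 and 2). At foxo they were 2.17 and 2.10 and 1.92 and 1.55, and at Stat92E 1.59 and 2.13. All of these regions were at or below the median percentile of the 272, except that of 1 foxo region (mean percentile 48.9, against a median of 48.0).

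RNA-binding and splicing genes were held in 5 of 45 members (11.1%), with 1 held by an S2-only region and 13 by regions of all 5 libraries. The share was 1.82% over all protein-coding genes and 3.1% over those from 5 to 10 kb, where the list's median of 8855 bp lies, while cpo (99061 bp) and Syp (53998 bp) are in the class with 14.3%. Besides cpo, Atx2, a translation and clock regulator gene, had folds of 2.26 and 4.12, but its region at 3R 15410036 to 15410616 lay 66 bp from an S2 CLAMP peak. Syp had folds of 1.74 and 2.81 and larp, a La-related protein gene, 2.07 and 1.60. At AGO2, the gene for the Argonaute protein of RNA interference, they were 2.13 and 1.75.

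Hemocyte genes were held in 3 of 28 members (10.7%), with 1 held by an S2-only region and 4 by regions of all 5 libraries. The list's median length of 7773 bp falls in the class with 3.1%, but vkg (16048 bp) and Pvr (18899 bp) fall in that with 6.18% and ush (64341 bp) in that with 14.3%. The collagen IV gene vkg had folds of 2.66 and 2.36, ush, a GATA cofactor gene of blood cells, 1.93 and 2.97 in a region that also overlapped cbt, and Pvr, a PDGF and VEGF receptor gene, 1.67 and 2.29. Kc and S2 are both known to resemble hemocytes, and S2 peaks were called in all 3 of these genes. The nearest region to Hml, the hemocyte gene for Hemolectin, lay 221 bp outside it at 3L 13845560 to 13845832, with folds of 2.19 and 1.61 and no S2 CLAMP peak within 22871 bp. It was named after its values were seen, and its q-value was weak in Kc replicate 2 (−log10 q of 0.982).

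The Polycomb and Trithorax group list was held in 2 of 24 members (8.33%), both weakly. These were osa, a subunit gene of the Brahma remodeller, with folds of 1.82 and 1.79, and kis, a chromodomain remodeller gene, with 1.55 and 1.95. Toll and Imd immunity genes were held in 2 of 29 members (6.90%), namely the NF-kappaB factor gene Dif, with 2.44 and 1.79, and the gene of its inhibitor, cact, with 1.85 and 2.27. Sex determination genes were held in 1 of 16 members (6.25%), fru, where the folds were 2.69 and 1.93 and an S2 CLAMP peak lay 333 bp away. Notch, Wnt, Hedgehog and Dpp signalling genes were held in 2 of 36 members (5.56%), the ubiquitin ligase gene neur, with 2.16 and 2.47, and shn, a Dpp-pathway zinc-finger gene, with 2.16 and 1.72. Over all protein-coding genes the share was 1.82%. In the length class of the list's median it was 3.1% for Polycomb and Trithorax and 1.08% for Toll and Imd. For sex determination it was 1.08%, and for the Notch list 6.18%. By their own lengths, osa and kis fall in the class with 7.76%, and Dif, cact and neur in that with 6.18%. The genes fru and shn fall in that with 14.3%.

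Cell cycle genes were held in 2 of 36 members (5.56%), the checkpoint kinase gene grp, with 2.34 and 2.11, and Dp, the partner of E2F, with 1.46 and 2.21. Axon guidance and adhesion genes were held in 2 of 46 (4.35%), Cad96Ca, with 2.40 and 2.77, and Fas1, with 2.26 and 1.71. Neither gene had an S2 CLAMP peak, and Fas1 had 3 Kc IgG peaks. The region at Cad96Ca also reached CG13654, and its peak of Kc replicate 2 lay outside Cad96Ca. In the length class of the list's median, the share over all protein-coding genes was 1.08% for cell cycle and 7.76% for axon guidance and adhesion. By their own lengths, grp, Cad96Ca and Fas1 fall in the class with 6.18% and Dp in that with 3.1%. No member was held among 36 homeotic and segmentation factor genes, 35 ion channel and synaptic receptor genes, 15 GA-binding and insulator factor genes and 6 autosomal dosage compensation genes. Of all protein-coding genes 1.82% were held. In the length class of the list's median, the share was 6.18% for ion channels and synaptic receptors (16435 bp). It was 3.1% for the homeotic, GA-binding and dosage compensation lists (5283 to 8798 bp). Whether 0 in lists of these sizes lies below these shares was not tested.

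Some Kc-only regions were close neighbours of S2 peaks. The gap to the nearest S2 CLAMP peak had a median of 1678 bp, and it was 500 bp or less for 65 regions (23.9%). The matching share over other Kc regions was not worked out, so 23.9% has no background here. In 41 of these 65 the neighbouring S2 peak belonged to a region that both Kc libraries held too, and in 14 to a region without Kc peaks. The nearest of all touched an S2 replicate 1 peak without sharing a base, at CG18135 (3L 18997437 to 18997721) and over Bin1 and sra (3R 16189216 to 16189614), and at CG30389 the gap was 7 bp. In the order given, their folds were 2.08 and 1.66, 1.57 and 1.81, and 1.96 and 1.91.

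A smaller group stood alone. For 40 regions (14.7%) the nearest S2 CLAMP peak lay more than 10 kb away, and 23 of these 40 lay within 500 bp of a gene end. Of all 272 regions 38.2% lay that near a gene end, and of all autosomal regions without IgG overlap 41.1%. The median of the mean percentile was 53.4 for the 40, against 39.7 for the 65 regions within 500 bp of an S2 peak. Besides betaTub97EF, the most remote, named after their values were seen, were a region at the end of corn (3L 7156165 to 7156790, folds 1.76 and 2.87) and one inside Pgant9 (2R 16731398 to 16731942, folds 2.24 and 2.31), with gaps of 40077 and 39528 bp. CG7458 had a region at its end and another 785 bp outside it, 28539 and 29503 bp from S2 peaks, with folds of 2.56 and 5.08 and of 2.08 and 2.72. S2-only regions lay farther from Kc peaks, with a median gap of 6388.5 bp. Of them 12.1% lay within 500 bp of a Kc peak and 42.3% more than 10 kb away. The Kc and S2 lists differ in number, so these gaps are a description.

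**Figure D4:**
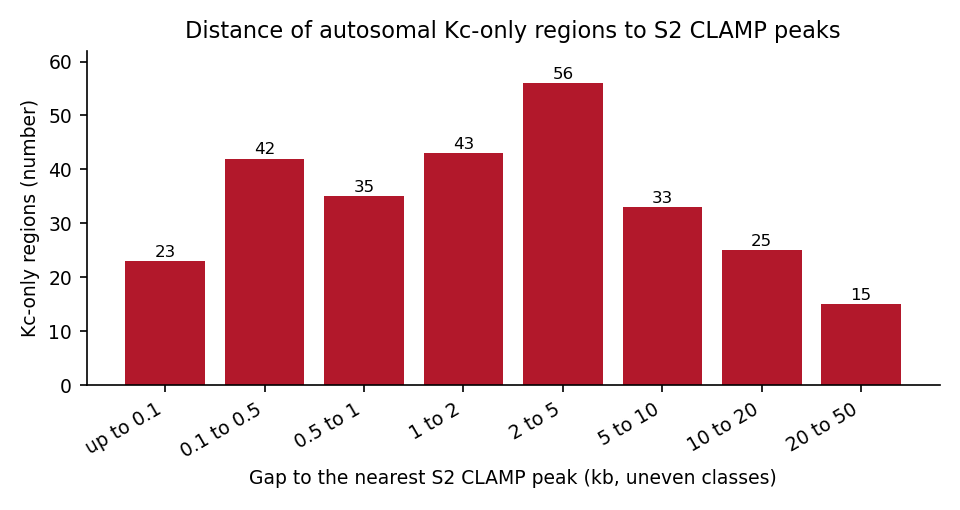
Number of autosomal Kc-only regions (vertical) by the gap to the nearest S2 CLAMP peak in kb (horizontal, classes of uneven width). The first 2 classes hold 23 and 42 regions, together the 65 within 500 bp, and the last 2 hold 25 and 15, the 40 beyond 10 kb.

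Few of the autosomal regions held by both Kc libraries lacked S2 peaks. There were 2072 without IgG overlap, and the 272 Kc-only ones made up 13.1%. Just outside the rule were 263 regions with a peak in a single S2 library. That library was S2 replicate 1 for 206 of them, replicate 2 for 41 and replicate 3 for 16. With peaks merged anew, 498 regions were Kc-only without S2 replicate 1, 315 without replicate 2 and 287 without replicate 3. Merging without a library also redraws regions, so these counts are not the sums of the numbers above. Counting only peaks with q at or below 0.0001 gave 168 Kc-only regions (2.34% of 7173), and 106 of the 272 were still overlapped by one. At the arm limits, the last region inside on 2L ended at 21430492 (folds 1.93 and 1.74) and the first outside began at 22018877 (2.56 and 4.68). On 3L they were at 22869123 (2.82 and 2.18) and 23411819 (1.71 and 2.36), and on 3R at 4395346 (1.91 and 2.03) and 3845745 (2.35 and 1.86).

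Most Kc-only regions lay in or at genes. Of the 272, 46 (16.9%, 95% Wilson interval 12.9 to 21.8) overlapped no gene, 104 (38.2%, 32.7 to 44.1) lay within 500 bp of a gene end, and 139 (51.1%, 45.2 to 57.0) lay inside a gene more than 500 bp from its ends. A region can be outside genes and near a gene end at once. All autosomal regions without IgG overlap had 19.0%, 41.1% and 45.9%, so the Kc-only shares were near that background. Among the 182 S2-only regions, 30.2% (24.0 to 37.2) overlapped no gene, a difference of -13.3 points for Kc-only minus S2-only (95% Newcombe interval -21.4 to -5.40). Intervals cover counting error only, and regions drawn from shared libraries are no replicates, so no test was made.

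The difference was smaller without proximal 2R. The rule sets no limit on 2R, and below 6.0 Mb that arm carried 19.3 genes per Mb, against 183 genes per Mb beyond. This stretch held 8 of the 272 Kc-only regions (2.94%), against 43 of the 182 S2-only regions (23.6%). Outside it, 40 of 264 Kc-only regions (15.2%) and 26 of 139 S2-only regions (18.7%) overlapped no gene, and the difference was -3.55 points. The limit at 6.0 Mb was chosen after seeing the data. Without S2 replicate 3 the difference was -3.05 points.

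**Figure D5:**
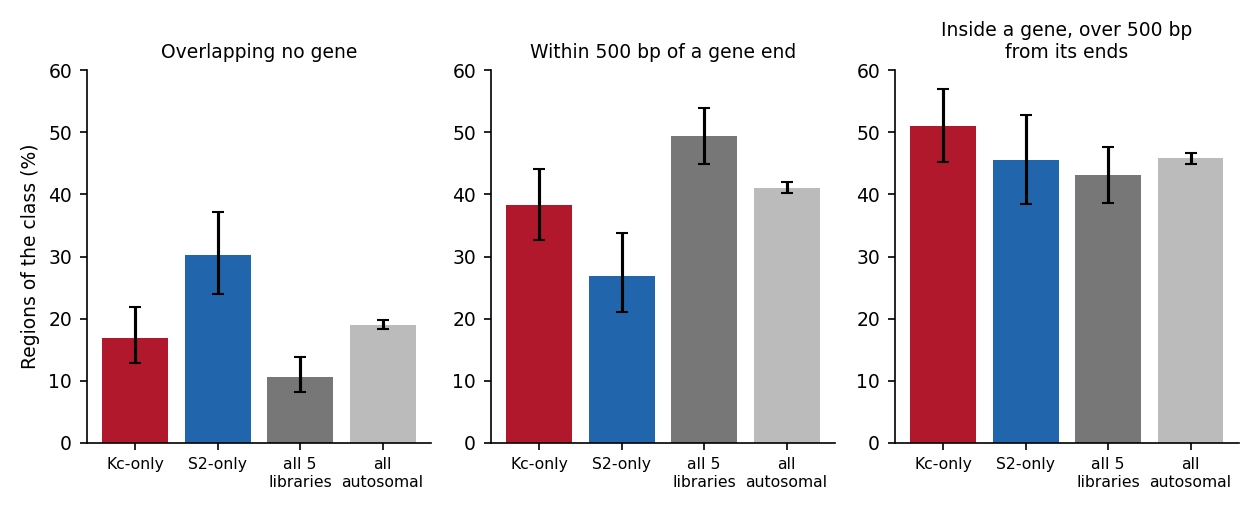
Share of regions in percent (vertical) that overlap no gene, lie within 500 bp of a gene end, or lie inside a gene over 500 bp from its ends, for the 272 Kc-only, 182 S2-only, 469 all-library and 11920 autosomal regions without IgG overlap. Error bars are 95% Wilson intervals, and the Kc-only share without a gene is 16.9%, against 30.2% for S2-only and 19.0% for all autosomal regions.

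By arm, 38 Kc-only regions lay on 2L (14.0%, 10.4 to 18.6), 83 on 2R (30.5%), 72 on 3L (26.5%) and 79 on 3R (29.0%). All autosomal regions without IgG overlap had 21.6% on 2L, 28.8% on 2R, 22.6% on 3L and 27.0% on 3R, so 2L was the arm where the Kc-only share was lowest against that background. The copy number of the arms in the 2 lines was not measured and was not corrected for.

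Kc-only regions had a median width of 438.5 bp, against 712 bp for S2-only regions, 1186 bp for those of all 5 libraries and 279 bp for all autosomal regions without IgG overlap. Merging more libraries widens a region, and Kc-only regions were built from 2 libraries. The widest after the one near IntS3 were a region 1562 bp outside lncRNA:CR44349 (3R 17515146 to 17516647, 1502 bp, folds 2.61 and 2.33) and that at CG33267 (1197 bp, folds 3.71 and 3.35). Most Kc-only regions were far from each other, with a median gap of 73042 bp, but 27 lay within 1 kb of another.

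Along 2L, 3 Kc-only regions lay in or beside the cluster of replication-dependent histone genes. The folds in Kc replicates 1 and 2 were 2.15 and 1.41 at His4:CG33907, 1.93 and 1.74 at His3:CG33806, and 2.17 and 3.29 at the region 2626 bp from His-Psi:CR31616. Histone genes are tandem copies with near-identical sequence, so how reads were shared among copies is uncertain. S2 peaks lay 179, 748 and 33 bp away. Across the cluster, Kc replicates 1 and 2 had 78 and 73 CLAMP peaks, and Kc IgG had 40 peaks. S2 replicates 1 to 3 had 46, 67 and 35 CLAMP peaks there, and S2 IgG had 7 peaks.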

How the data were processed

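CUT&RUN libraries of Kc and S2 cells (CLAMP: 2 and 3; IgG: 1 each) took 1 ng of DNA each, 14 cycles of PCR and paired 25 bp reads, per the labels. Per the submitters' processing notes, tools were FastQC, Trimmomatic, Bowtie2 and MACS2, with build dm6 and no versions. The caller's control and settings are not given in the sources used here. No label says that replicates came from separate cultures.

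Each library has its own peak list from the authors, called per sample. Each row gives a summit's fold (a ratio), −log10 p-value, −log10 q-value and a score, which per the file headers follow the narrowPeak layout. The deposited score, the whole part of 10 times the −log10 p-value, was not used. Fold is the authors' value and serves here to describe and rank peaks within a list.

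Rows sharing an interval were joined, keeping the strongest summit. Intervals that only touch stay separate. Merging and classes were tested on simulated data. Genes came from a RefSeq table of Release 6, the assembly of dm6, which gives gene bounds without strand or exons. Python 3.11.15, pandas 2.3.3 and scipy 1.17.1 were used. Depth is unknown, and shares carry 95% Wilson intervals.

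The members, the 15 gene lists and the alternatives were chosen with earlier results of these data known. Named were genes at the 15 regions of highest mean percentile, genes with 2 or more regions (since only 4 had 3 or more), up to 4 genes per list (every gene for sex determination and dosage compensation), and the 3 widest and 3 regions nearest to S2 peaks. Other list members held were added. The planned part on promoters and the share of GA repeats were not computed, since no sequence was used here. A gene and a gene list are not reported here.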

Additional observations from a re-analysis of the deposited data

How the results depend on the processing

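The number of Kc-only regions, 272, became 168 when only peaks with q at or below 0.0001 counted, 166 with equally long CLAMP lists of 5535 peaks, 428 with windows of 100 bp to each side of a summit and 450 with no region set aside for IgG. Leaving out 1 CLAMP library gave 287 to 2417 regions, the highest counts with a single Kc library left. The other settings gave 207 to 293. The outside-gene share, 16.9%, became 25.6% with no IgG filter and 10.7% with genes extended by 500 bp. It was 13.5% to 22.3% without 1 library, and 14.5% to 21.0% otherwise. The Kc-only minus S2-only difference in that share, -13.3 points, became -3.55 points with 2R below 6.0 Mb left out, and ran from -17.9 to -3.05 points without 1 library. Otherwise it was -19.7 to -9.33 points, with the gene definition not varied. Its sign held in all settings run. With 2R below 6.0 Mb left out, however, the Wilson intervals of both shares overlapped. The cause of the other shifts was not tested. The alternatives for this difference, and those on 2R and on IgG peaks within 500 bp, were chosen after seeing the data. The GA-repeat share and its alternatives were not run. No paired analysis was possible because the results come from no test. Unknown depth limits every statement that a peak is missing in S2.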
